A study of Drosophila melanogaster with 18 samples.

Results

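Mature miRNAs were compared between the brain and the gut of adult Drosophila melanogaster, using the 3 brain and the 3 gut libraries, 6 of the 18 libraries in the series. The other 12 are small RNA libraries of thorax and fat body and poly(A) libraries of heads, and they are not compared here. Those of thorax and fat body enter only an alternative fit in which all small RNA libraries were scaled together. Both tissues came from once-mated females of the wild-type strain white Dahomey (wDah), dissected 10 days after eclosion, and the flies differed in neither genotype nor treatment. The strain carries the endosymbiont Wolbachia, per the study's methods. The gut was the midgut, taken without the Malpighian tubules. How many flies went into a library, and whether the 3 libraries of a tissue came from separate flies, is not stated in the labels or methods, and the p-values therefore measure the spread between these libraries, which may be technical.

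A miRNA is cut from a hairpin precursor, which can yield a mature strand from its 5′ arm (5p) and from its 3′ arm (3p), one of which is usually far more abundant. The mature strand guides an Argonaute protein to messenger RNAs that pair with its seed, bases 2 to 8 from the 5′ end, and lowers their translation or stability. Hairpins that lie close together are often cut from a shared transcript, and hairpins formed by a short intron or part of one, called mirtrons, are freed by splicing. The adult brain is rich in neurons and glia, while the midgut is an epithelium of enterocytes, enteroendocrine cells and stem cells wrapped in visceral muscle.

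The sequences that follow are those on which the comparison turns, with the seed in capitals and the remainder in lower case, read from RefSeq Release 6 by name. The first set was higher in brain, and the first 2 of it differ only by the substitution C10A, with positions counted from the 5′ end, so that they share a seed:
miR-276a-3p: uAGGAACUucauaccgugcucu
miR-276b-3p: uAGGAACUuaauaccgugcucu
miR-957-3p: uGAAACCGuccaaaacugaggc
miR-927-5p: uUUAGAAUuccuacgcuuuacc
miR-315-5p: uUUUGAUUguugcucagaaagc
miR-124-3p: uAAGGCACgcggugaaugccaag
miR-219-3p: aGGGUUGCgacugggcaucgcg
miR-210-3p: cUUGUGCGugugacagcggcuau
miR-1017-3p: gAAAGCUCuacccaaacucaucc
miR-133-3p: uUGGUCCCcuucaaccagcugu

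The second set was higher in gut, and miR-314-3p and miR-956-3p share the 6 bases UUCGAG, at bases 3 to 8 of the first and 2 to 7 of the second:
miR-958-3p: uGAGAUUCuucuauucuacuuu
miR-314-3p: uAUUCGAGccaauaaguucgg
miR-956-3p: uUUCGAGAccacucuaauccauu
miR-375-3p: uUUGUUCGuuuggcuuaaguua
miR-316-5p: uGUCUUUUuccgcuuacuggcg
miR-10-3p: cAAAUUCGguucuagagagguuu
miR-263a-5p: aAUGGCACuggaagaauucacggg
miR-1-3p: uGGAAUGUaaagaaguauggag

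A further set shows names of shared seed that moved together, the miR-9 family, and names of shared seed that moved apart, miR-13a-3p and miR-13b-3p, with the other arm pair of their neighbour miR-2c:
miR-9a-5p: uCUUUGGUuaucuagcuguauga
miR-9b-5p: uCUUUGGUgauuuuagcuguaug
miR-9c-5p: uCUUUGGUauucuagcuguaga
miR-13a-3p: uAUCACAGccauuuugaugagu
miR-13b-3p: uAUCACAGccauuuugacgagu
miR-2c-3p: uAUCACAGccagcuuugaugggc
miR-2c-5p: uCAUCAAAaagggcugaagaaagau

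Brain libraries held 16668567, 16798025 and 16537126 miRNA counts, against 986198, 7081807 and 5479229 in gut. A single count was worth 0.0600, 0.0595 and 0.0605 CPM (counts scaled to 1e6 per library) in brain, against 1.01, 0.141 and 0.183 CPM in gut, so gut 1 resolved rare miRNAs least. All 3 brain libraries were deeper than every gut library, and the intervals given for ratios cover counting error only. Of 426 mature names, 353 had a count in these 6 libraries, 265 had at least 10 and were tested, 88 were counted below that minimum, and 73 were not counted. The neuronal marker miR-124-3p was counted in every brain library, and the muscle marker miR-1-3p was abundant in gut and present in brain. Of the ovary markers, miR-989-3p had 5.28, 13 and 13.5 CPM in brain, against 9.13, 10.7 and 17.7 CPM in gut, and miR-318-3p had 67.3, 20.5 and 53 CPM in brain, against 21.3, 9.32 and 19.5 CPM in gut. Both were thus present at a low level in all 6 libraries, and their part in any result was not tested.

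The 2 tissues had largely different miRNA populations. Of the 265 names tested, 178 (67.2%) passed edgeR's quasi-likelihood test at a Benjamini-Hochberg adjusted p under 0.05: 110 (41.5%) were higher in brain and 68 (25.7%) higher in gut. The 3 brain values lay wholly above the 3 gut values for 121 names (45.7%) and wholly below them for 78 (29.4%), 75.1% in all. Names called higher in brain held 77.7% of brain counts and 10.4% of gut counts, and names called higher in gut held 6.73% of brain counts and 74.7% of gut counts. The median log2 fold change, brain over gut, was 0.82 over all names tested, 4.33 over names called higher in brain and −2.90 over names called higher in gut. For 11 tested names gut had no count at all, and with these set to the fold that 3 counts over the gut group would allow, the median was 0.62 over all names and 3.96 over those higher in brain.

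The share called depended on the mean level in the higher tissue, from 21.7% of names under 1 CPM to 84.2% of those at 1000 CPM or more. So did the direction. Under 1 CPM, 10 names were called higher in brain and 0 higher in gut, against 22 and 26 at 1000 CPM or more. The minimum of 10 counts can be reached in the deeper brain libraries alone. Requiring 10 counts in each of 3 libraries gave 89 calls toward brain and 69 toward gut. Gut replicates varied more than brain replicates, with a median SD of 10.5% of the mean in brain and 28.1% in gut among names of at least 10 CPM. At the edge of the threshold, let-7-5p, miR-2500-3p and miR-980-3p lay just inside (adjusted p = 0.0499) and miR-975-5p (adjusted p = 0.0505) just outside. The scale itself was not fixed by the data. Log2 fold changes moved by a median of −0.28 with upper quartile factors and of 0.20 with DESeq2 size factors. With all 12 small RNA libraries scaled and fitted together they moved by a median of 0.60. No called name changed direction under any of these. The split of calls moved as well, to 94 higher in brain and 81 higher in gut with upper quartile factors, beside 110 and 68. With all 12 libraries it was 129 and 57, and that fit also draws its spread from thorax and fat body.

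**Figure D1:**
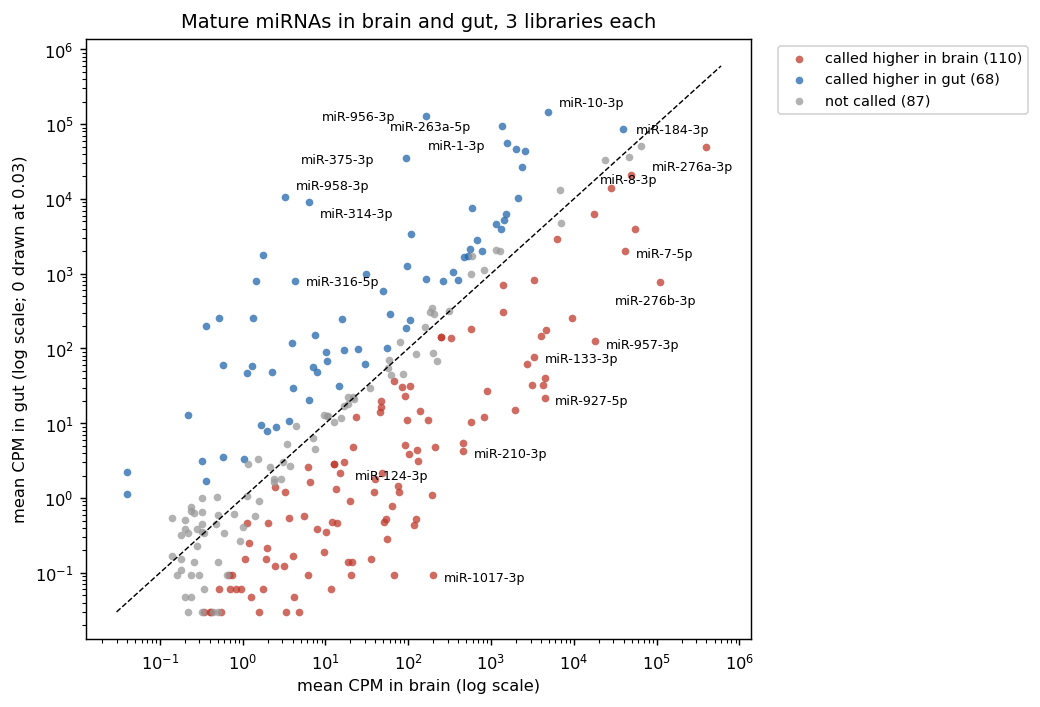
Mean CPM of each of the 265 tested miRNAs in brain (horizontal) and gut (vertical), 3 libraries each, on log axes with 0 drawn at 0.03; red names were called higher in brain (110), blue names higher in gut (68) and grey names not called (87), and the dashed line marks equal levels. Names above 10000 CPM in one tissue lie from the line itself, as miR-184-3p does, to far off it, as miR-276b-3p and miR-956-3p do.

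The brain population was led by the pair of miR-276 paralogs. In Drosophila, miR-276a acts in olfactory memory and in the circadian clock. miR-276a-3p alone made up 38.4 to 41.2% of the brain libraries, with 392557, 384301 and 411656 CPM in brain, against 19643, 62698 and 66271 CPM in gut (log2 fold change 3.02 ± 0.53, SE, adjusted p = 0.00130). miR-276b-3p had 109844, 104271 and 112349 CPM in brain, against 167, 1987 and 201 CPM in gut (log2 fold change 7.20 ± 1.13, adjusted p = 7.27e-04). Whether the fold changes of the paralogs differ was not tested, and since 1 base separates their sequences, reads with an error at that base could be counted for the other. Their hairpins lie on chromosome arm 3L, plus strand, from 10319785 to 10319883 (miR-276b) and from 10365228 to 10365325 (miR-276a), each in an exon of a long non-coding RNA. Their 5p arms are identical in sequence and had identical counts in the table, so they cannot be told apart.

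miR-999-3p and miR-7-5p were among the abundant miRNAs of the brain as well. miR-999-3p, from an intron of CASK, which encodes a synaptic scaffold kinase, had 59485, 52455 and 54402 CPM in brain, against 3505, 5004 and 3274 CPM in gut (log2 fold change 3.88 ± 0.35, adjusted p = 4.27e-05). miR-7-5p, known for its role in photoreceptor and sensory organ differentiation, had 41686, 41588 and 41848 CPM in brain, against 1505, 2510.0 and 2099 CPM in gut (log2 fold change 4.39 ± 0.37, adjusted p = 3.12e-05). Even the lowest brain library was 10.5-fold above the highest gut library for miR-999-3p, and 16.6-fold for miR-7-5p. miR-34-5p, linked to ageing of the fly nervous system, had a smaller fold change, with 48019, 49724 and 47431 CPM in brain, against 23114, 17631 and 22165 CPM in gut (log2 fold change 1.24 ± 0.30, adjusted p = 0.00718). Its groups did not overlap, but without brain 1 or brain 2 its call was lost (adjusted p = 0.0719 and 0.0903).

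The 10 names with the largest differences toward brain were miR-1017-3p, miR-990-5p, miR-927-5p, miR-219-3p, miR-124-5p, miR-932-3p, miR-1004-3p, miR-957-3p, miR-276b-3p and miR-981-5p. miR-957-3p had 18649, 16703 and 18359 CPM in brain, against 28.4, 331 and 13.7 CPM in gut (log2 fold change 7.26 ± 1.30, adjusted p = 0.00149). miR-927-5p, from an intron of mmd on the X chromosome, had 4505, 4371 and 4386 CPM in brain, against 2.03, 57.9 and 5.66 CPM in gut (log2 fold change 7.68 ± 1.22, adjusted p = 7.74e-04). Brain levels of these miRNAs varied by little, and the spread of the fold came from the gut, where gut 2 was the highest library for both.

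**Figure D2:**
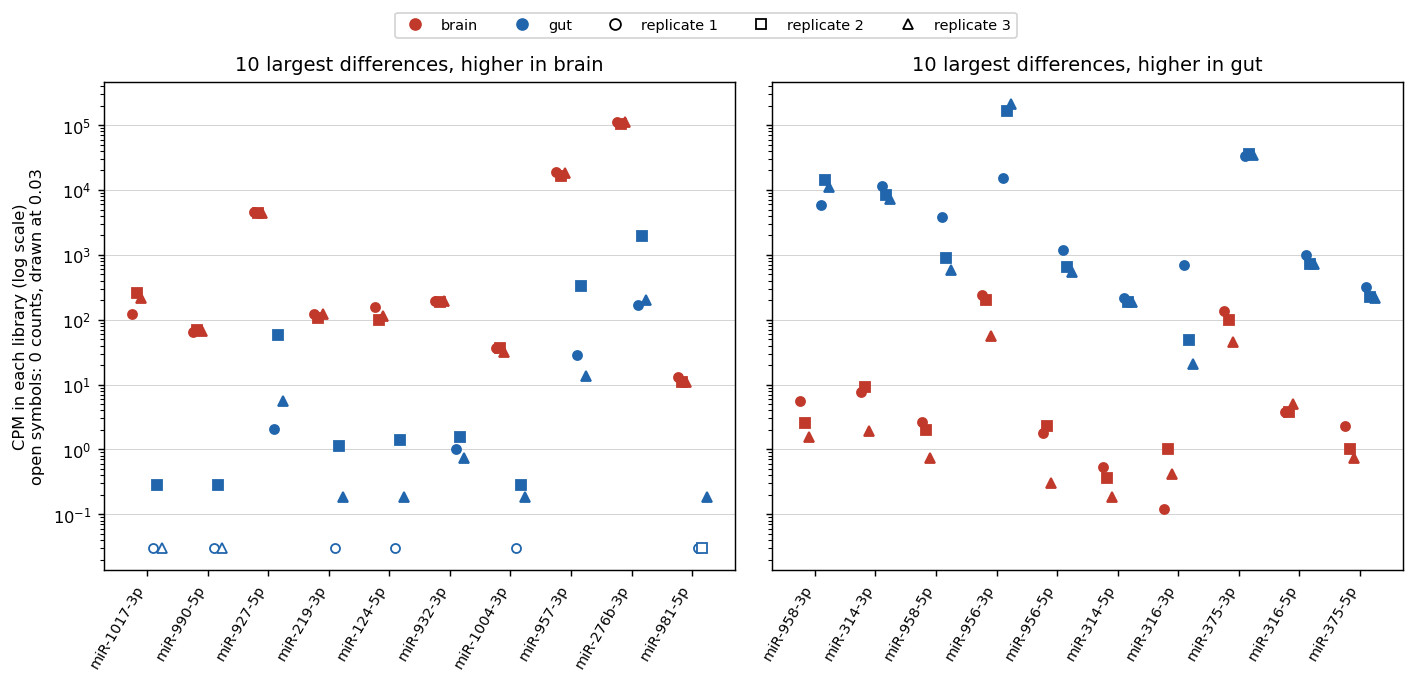
CPM in each library, on a log scale, of the 10 miRNAs with the largest difference toward brain (left panel) and toward gut (right panel); red symbols are brain and blue symbols gut, the symbol shape gives the replicate, and open symbols mark 0 counts, drawn at 0.03. Brain values of one miRNA lie close together in the left panel, gut 2 is the highest gut library for 9 of the 10 names there, and gut 1 stands apart from gut 2 and gut 3 for miR-956-3p and miR-316-3p in the right panel.

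The genes in which 3 of the brain miRNAs lie, picked with their values in view, are given with them. miR-1017-3p, a mirtron of the nicotinic acetylcholine receptor subunit gene nAChRalpha2 (3R, 24488612 to 24488682, plus strand), had 124, 256 and 214 CPM in brain, against 0, 0.282 and 0 CPM in gut. With 9904 counts in brain against 2 in gut, the ratio of pooled levels was 1342 (exact 95% interval 371 to 11079.7). miR-932-3p, from an intron of the neuroligin gene Nlg2, had 196, 185 and 192 CPM in brain, against 1.01, 1.55 and 0.730 CPM in gut (log2 fold change 7.41 ± 0.43, adjusted p = 1.24e-05). Its 5p arm was about 10 times as abundant, with 2021, 1959.6 and 1938 CPM in brain, against 3.04, 34.6 and 7.12 CPM in gut. miR-284-5p, annotated within an exon of the octopamine receptor gene Octbeta2R, had 4081, 3922 and 4169 CPM in brain, against 161, 149.7 and 127 CPM in gut (log2 fold change 4.85 ± 0.34, adjusted p = 1.57e-05). A further 3 of the largest differences rested on 1 to 3 gut counts: miR-990-5p with a pooled ratio of 451 (95% interval 125 to 3722), miR-1004-3p with 158 (54 to 768) and miR-981-5p with 159 (28.5 to 6303).

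miR-124, the best known neuronal miRNA, was of moderate abundance in brain. Its 3p arm, the one conserved among animals, had 105, 94.6 and 106 CPM in brain, against 0, 10.9 and 0.730 CPM in gut (log2 fold change 4.52 ± 0.95, adjusted p = 0.00320). Its 5p arm had 159, 97.6 and 115 CPM in brain, against 0, 1.41 and 0.183 CPM in gut (log2 fold change 7.43 ± 0.73, adjusted p = 5.89e-05). The arms were thus at similar levels in brain, and both were highest in gut 2 among the gut libraries. miR-219-3p had 121, 107 and 123 CPM in brain, against 0, 1.13 and 0.183 CPM in gut (log2 fold change 7.59 ± 0.63, adjusted p = 3.12e-05). The miR-219 family has roles in the mammalian clock and in myelination, and its 2 arms have different seeds. The 5p arm had 2624, 2106 and 1876 counts in brain, against 2, 50 and 2 in gut. The 3p arm had 2016, 1797 and 2037 counts in brain, against 0, 8 and 1 in gut. miR-210-3p, which in mammals responds to hypoxia, had 510.1, 492 and 387 CPM in brain, against 3.04, 7.91 and 2.01 CPM in gut (log2 fold change 6.73 ± 0.60, adjusted p = 4.18e-05). miR-210-5p had 6.30, 29.2 and 24.9 CPM in brain, with brain 1 below the other brain libraries, against 0, 0.282 and 0 CPM in gut, where 2 counts gave a pooled ratio of 136 (95% interval 37.7 to 1128). The miR-210 hairpin lies between annotated genes on the X chromosome, plus strand, from 18128219 to 18128318.

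Among all 34 tested names of miRNAs with known roles in the nervous system, 24 were called higher in brain, 6 higher in gut and 4 were not called, with a median log2 fold change of 3.69. Over all names tested, 41.5% were called higher in brain and 25.7% higher in gut. The study took up miR-210, which is on this list, for its brain-specific level in these same libraries, so its direction is no independent evidence. The called members ran up to miR-219-3p, and included miR-315-5p (7.06), miR-263b-5p (6.73) and miR-1000-5p (5.79). The 6 called higher in gut were both arms of miR-9a and of miR-996, miR-279-3p and miR-92a-3p. Except for miR-92a-3p these act during development in the specification of sensory organs and neurons. miR-279-3p, which with miR-996 represses the formation of CO2-sensing neurons, had 68.7, 127 and 89.9 CPM in brain, against 147, 1615 and 2042 CPM in gut, where gut 1 was far below gut 2 and gut 3 (log2 fold change −3.77 ± 0.88, adjusted p = 0.00583). Names of this list called higher in brain numbered 18 without brain 1 or brain 2 and 20 to 24 without any other library.

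Among the 42 names called higher in brain that averaged at least 100 CPM there, gut 2 was the highest gut library for 28, gut 1 for 6 and gut 3 for 8. The median level of these names, as a share of the brain mean, was 1.64% in gut 1, 5.30% in gut 2 and 2.48% in gut 3. The summed level of the 42 names was 78034 CPM in gut 1, 116516 CPM in gut 2 and 117668 CPM in gut 3, so that in sum gut 2 and gut 3 were alike. The cause was not tested. Leaving out gut 2 raised the log2 fold change of miR-957-3p to 10.08, of miR-927-5p to 9.99, of miR-276b-3p to 9.33, of miR-124-3p to 7.40, of miR-124-5p to 9.53, of miR-219-3p to 9.46 and of miR-210-3p to 7.73, and each of these stayed called. Without gut 1 it was 7.09 for miR-927-5p and 6.62 for miR-276b-3p. Among the 43 names called higher in gut that averaged at least 100 CPM there, brain 1 was the highest brain library for 29 and brain 3 the lowest for 23, with medians of 8.73, 7.32 and 7.24% of the gut mean in brain 1, brain 2 and brain 3.

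The gut population was led by several miRNAs rather than by one. miR-10-3p was the most abundant name in gut 1 and miR-956-3p in gut 2 and gut 3, at 16.4 to 21.6% of a library. miR-10-3p had 4749, 5048 and 4874 CPM in brain, against 216269, 115307 and 100164 CPM in gut (log2 fold change −4.82 ± 0.42, adjusted p = 3.27e-05). miR-956-3p had 241, 198 and 55.9 CPM in brain, against 15250.5, 163894 and 211449.8 CPM in gut (log2 fold change −9.61 ± 1.31, adjusted p = 3.58e-04). Its level in gut 1 was more than 10-fold below that in gut 2 and gut 3, and without gut 1 its log2 fold change was −10.32, compared with −10.25 without brain 1 and −8.99 without gut 3. The 5p arm did not share that drop, with 1.80, 2.26 and 0.302 CPM in brain, against 1193, 647 and 543 CPM in gut.

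The largest differences toward gut belonged to miR-958, miR-314, miR-956, miR-316 and miR-375, each with both arms. miR-958-3p, which in flies targets parts of the Toll immune pathway, had 5.64, 2.56 and 1.57 CPM in brain, against 5974, 14434 and 11096 CPM in gut (log2 fold change −11.56 ± 0.89, adjusted p = 2.06e-05). miR-314-3p had 7.80, 9.05 and 1.94 CPM in brain, against 11696, 8334 and 7373 CPM in gut (log2 fold change −10.46 ± 0.80, adjusted p = 2.06e-05). Without brain 1 the log2 fold change of miR-958-3p was −12.37. The lowest gut library was 1059-fold above the highest brain library for miR-958-3p, and 815-fold for miR-314-3p. The miR-958 hairpin lies on 3L, minus strand, from 22669289 to 22669380, in an exon of a long non-coding RNA, and the miR-314 hairpin on 3L, plus strand, from 11773012 to 11773101. The miR-956 hairpin lies on the opposite strand, from 11773731 to 11773878, with 629 bases between it and miR-314. This was the one pair of tested hairpins on opposite strands within 1000 bases, and both were called higher in gut.

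miR-375-3p, in mammals a miRNA of pancreatic islet and gut endocrine cells, had 135, 98.9 and 45.8 CPM in brain, against 33678, 36226 and 34465 CPM in gut (log2 fold change −8.48 ± 0.62, adjusted p = 1.85e-05). Its gut values lay close together, whereas brain 3 was well below brain 1. miR-316-5p had 3.84, 3.81 and 5.08 CPM in brain, against 985, 725 and 721 CPM in gut (log2 fold change −7.53 ± 0.41, adjusted p = 1.24e-05). miR-316-3p was uneven in gut, with 0.120, 1.01 and 0.423 CPM in brain, against 686, 49 and 21 CPM in gut, and without gut 1 its log2 fold change was −6.12, and without brain 1 −7.76, in place of −8.84. Gut 1 was likewise the highest for miR-958-5p (3809.6, 890.5 and 589 CPM in gut), whose log2 fold change of −9.84 became −8.81 without it.

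Of 14 tested names of miRNAs known from work on the fly gut, 11 were called higher in gut, 1 higher in brain and 2 were not called, with a median log2 fold change of −2.90. Over all names tested, 25.7% were called higher in gut and 41.5% higher in brain. miR-958 and miR-314 were put on this list from the study's own account of these libraries, so their direction is no independent evidence. miR-263a-5p, an epithelial miRNA that restrains sodium channel expression in the gut, had 1563, 1320.3 and 1194 CPM in brain, against 142008, 72088 and 70475 CPM in gut (log2 fold change −6.06 ± 0.47, adjusted p = 2.06e-05). miR-305-5p, which acts in intestinal stem cells, had 2971, 1971 and 2145 CPM in brain, against 29112, 27908 and 23698 CPM in gut (log2 fold change −3.44 ± 0.37, adjusted p = 9.07e-05). The growth regulator bantam-3p had 40018, 38730.2 and 39018 CPM in brain, against 70766, 104825 and 82991 CPM in gut (log2 fold change −1.09 ± 0.31, adjusted p = 0.0147). Its groups did not overlap, but it was not called without brain 1, brain 2 or gut 2 (adjusted p = 0.118, 0.116 and 0.124). The exception toward brain was miR-8-5p (1028, 1550.1 and 1626 CPM in brain, against 625, 755 and 719 CPM in gut, adjusted p = 0.0182), and no member was called higher in brain when any 1 library other than gut 3 was left out. Members called higher in gut numbered 8 without brain 1 or brain 2 and 9 to 13 without any other library.

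Some of the most abundant miRNAs did not pass the test. miR-184-3p had 59566, 75385 and 61221 CPM in brain, against 91381, 36923 and 24412 CPM in gut (log2 fold change 0.42 ± 0.47, adjusted p = 0.445), and gut 1 lay above every brain library while gut 2 and gut 3 lay below every brain library. Without gut 1 it was called higher in brain (0.99, adjusted p = 0.00667). miR-14-3p, which acts in fat metabolism and cell survival, had 41566, 54451 and 43006 CPM in brain, against 18430.4, 35876 and 55385 CPM in gut (log2 fold change 0.33 ± 0.45, adjusted p = 0.531). miR-8-3p, the fly member of the miR-200 family, had 27829, 20599 and 22663 CPM in brain, against 36709.7, 32365 and 29561 CPM in gut (log2 fold change −0.41 ± 0.32, adjusted p = 0.281). Its groups did not overlap in CPM, and it was called higher in gut without gut 1 (−0.51, adjusted p = 0.0360). miR-275-3p (−0.61, adjusted p = 0.105) and miR-317-3p (0.62, adjusted p = 0.111) were likewise apart in CPM but not called, and their calls depended on the setting. miR-275-3p was called higher in gut without gut 1 (adjusted p = 0.00642), but not without any other library. With upper quartile factors it was called as well (adjusted p = 0.00903). miR-317-3p was called higher in brain with DESeq2 size factors (adjusted p = 0.0213), but not when any 1 library was left out.

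The 2 miRNAs best known from muscle went in opposite directions. miR-1-3p had 1543, 1414 and 1702 CPM in brain, against 82156, 41353 and 44826 CPM in gut (log2 fold change −5.12 ± 0.43, adjusted p = 3.12e-05), and the lowest gut library was 24.3-fold above the highest brain library. miR-133-3p, which in vertebrates is made in muscle from the same transcripts as miR-1, had 3409.7, 3057 and 3533 CPM in brain, against 26.4, 197 and 7.85 CPM in gut (log2 fold change 5.52 ± 1.14, adjusted p = 0.00297). Gut 2 again had the most, and without it the log2 fold change was 8.08. miR-133-5p had 53.6, 56.2 and 55.9 CPM in brain, against 0, 0.847 and 0 CPM in gut. The other arm of miR-1 had 1 count in brain against 5 in gut and was not tested. In bulk tissue, fewer cells of a type and less of a miRNA per cell cannot be told apart.

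**Figure D3:**
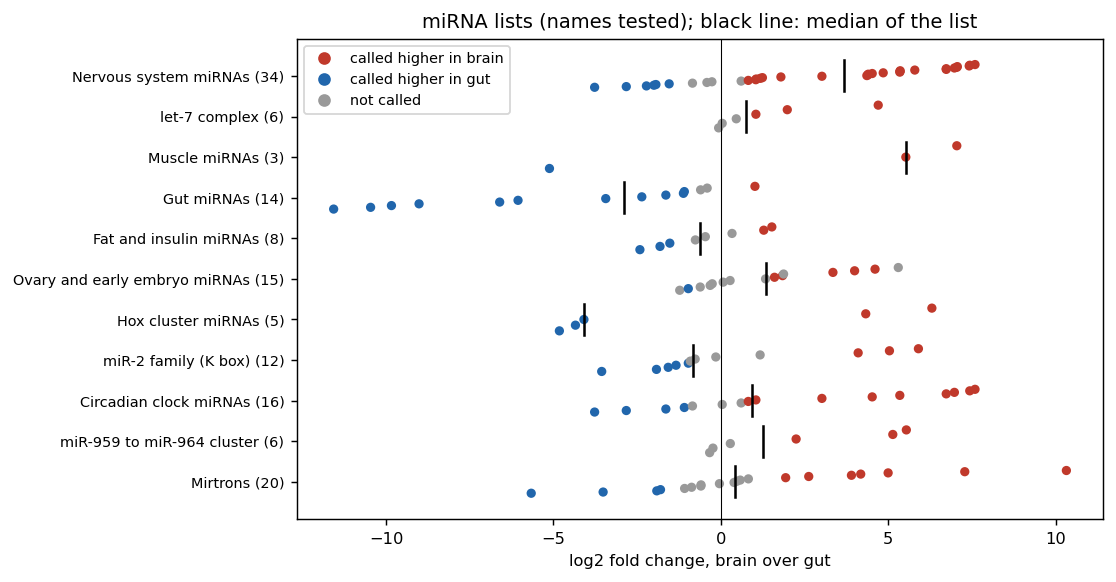
Log2 fold change, brain over gut, of each tested member of 11 miRNA lists, with both arms of a miRNA shown; red members were called higher in brain, blue higher in gut and grey not called, and the black line is the list's median. Nervous system members reach from −3.77 to 7.59 around a median of 3.69, gut members from −11.56 to 1.02 around −2.90, and muscle and Hox cluster members fall at both ends with none between.

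miRNAs of the Hox gene clusters were also split. miR-10, which lies between Hox genes of the Antennapedia complex, was called higher in gut on both arms: miR-10-5p had 2079, 2883 and 2676 CPM in brain, against 27423, 50582 and 52664 CPM in gut (log2 fold change −4.09 ± 0.41, adjusted p = 6.25e-05). miR-iab-4-5p, from the bithorax complex, had 2.28, 2.08 and 2.48 CPM in brain, against 59.8, 43.2 and 42.3 CPM in gut (log2 fold change −4.34 ± 0.31, adjusted p = 1.85e-05). miR-993-3p, whose hairpin lies in the same complex as miR-10 on the other strand, had 911, 782 and 778 CPM in brain, against 24.3, 11.3 and 1.10 CPM in gut (log2 fold change 6.30 ± 0.97, adjusted p = 6.76e-04). In all, 3 of 5 tested names were called higher in gut and 2 higher in brain (25.7% and 41.5% over all names tested), and these counts were the same when any 1 library was left out. miR-993-3p was uneven in gut, highest in gut 1, and without that library its log2 fold change was 6.98, or 5.70 without gut 3.

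The let-7 complex is a single transcript carrying miR-100, let-7 and miR-125, which is switched on at metamorphosis and acts in the maturation of the neuromuscular system. miR-125-5p had 4247, 5319 and 4405 CPM in brain, against 42.6, 175 and 310.1 CPM in gut (log2 fold change 4.70 ± 0.75, adjusted p = 7.64e-04). miR-100-5p had 3222, 3302 and 3286 CPM in brain, against 170.4, 853 and 1436 CPM in gut (log2 fold change 1.98 ± 0.70, adjusted p = 0.0368). let-7-5p had 27717, 31932 and 24633 CPM in brain, against 23152, 9967 and 9326 CPM in gut (log2 fold change 1.04 ± 0.41, adjusted p = 0.0499). Without gut 1 and without gut 3 the log2 fold change was 4.11 and 5.48 for miR-125-5p, and 1.36 and 2.76 for miR-100-5p. Within the gut libraries the 3 did not run in parallel, since gut 1 was the lowest for miR-125-5p and miR-100-5p and the highest for let-7-5p. All 3 of these were called higher in brain and their 3 partner arms were not called, where 41.5% of all names tested were called higher in brain. When any 1 brain library was left out only miR-125-5p was called, and without gut 2 or gut 3 there were 2 calls.

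Smaller differences were seen among miRNAs of fat and insulin regulation. Of 8 tested names, 2 were called higher in brain, 3 higher in gut and 3 were not called, where 41.5% of all tested names went toward brain and 25.7% toward gut. miR-33-5p, from an intron of the sterol regulator gene SREBP, had 1576, 1343 and 1419 CPM in brain, against 3899.8, 5520.1 and 6249 CPM in gut (log2 fold change −1.82 ± 0.36, adjusted p = 0.00226), and miR-33-3p was also higher in gut (−2.42, adjusted p = 0.00130). miR-14-5p (−1.53, adjusted p = 0.0158) was not called when any 1 brain library was left out. The 2 names called higher in brain, miR-277-3p (1.52, adjusted p = 0.0421) and miR-278-5p (1.28, adjusted p = 0.0170), were not called when any 1 brain library or gut 2 was left out. Of 16 names tied to the circadian clock, most of which also stand on the nervous system list, 9 were called higher in brain and 4 higher in gut (41.5% and 25.7% over all names tested). Calls toward gut numbered 2 without brain 1 or brain 2.

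Names of ovary and early embryo miRNAs were mostly rare, and their list left out the 5p arms of miR-6, whose names carry a hairpin number. Of 15 tested, 5 were called higher in brain, 1 higher in gut and 9 were not called (41.5% toward brain and 25.7% toward gut over all names tested), with a median log2 fold change of 1.33, or 0.99 with the member absent from gut at its bound. miR-312-3p had 22.5, 2.92 and 16 CPM in brain, against 0, 0.282 and 1.10 CPM in gut (log2 fold change 4.60 ± 1.08, adjusted p = 0.00578), which was 3.88 without brain 1, 3.92 without gut 2 and 5.91 without gut 3. miR-6-3p, called higher in gut (−0.97, adjusted p = 0.00925), was not called without brain 1, brain 2 or gut 2, and calls toward brain numbered 3 without brain 1 or gut 2. In the miR-959 to miR-964 cluster, 3 of 6 tested names were called higher in brain (41.5% over all names tested) at levels under 2 CPM. miR-960-3p and miR-961-5p had 20 and 27 counts in brain and none in gut, at least 1.81-fold and 2.44-fold higher against a floor of 3 counts over the gut libraries. No more than 1 of the 3 calls was left when any 1 library was omitted.

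Of 20 tested names of mirtrons, 7 were called higher in brain, 4 higher in gut and 9 were not called, with a median log2 fold change of 0.43, against 0.82 over all names tested. All names tested were called in 41.5% of cases toward brain and in 25.7% toward gut. miR-1010-3p, from an intron of SKIP, had 769, 1066 and 817 CPM in brain, against 10.1, 33 and 37.8 CPM in gut (log2 fold change 4.99 ± 0.57, adjusted p = 1.19e-04). miR-1012-3p, from an intron of the lysosomal sorting receptor gene Lerp, had 56.5, 47.4 and 43.1 CPM in brain, against 880.1, 462 and 425 CPM in gut (log2 fold change −3.52 ± 0.41, adjusted p = 1.50e-04). Calls toward gut numbered 6 without brain 2 and 3 or 4 without any other library.

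miRNAs that share a seed can pair with the same sites, so counts were also summed over names of equal bases 2 to 8. Of 235 such sums tested, 164 (69.8%) were called, 104 (44.3%) higher in brain and 60 (25.5%) higher in gut, most of them holding a single name. The sums carry the scaling factors of the single names. With factors from the sums themselves log2 fold changes were lower by a median of 0.58, and 147 sums were called, 77 higher in brain and 70 higher in gut. Among the 21 with at least 2 detected names, 7 were called higher in brain, 8 higher in gut and 6 were not called. The miR-276 sum made up 502401, 488572 and 524005 CPM in brain, against 19810.4, 64685 and 66473 CPM in gut (log2 fold change 3.34 ± 0.52, adjusted p = 6.01e-04). The miR-9 sum, over miR-9a-5p, miR-9b-5p and miR-9c-5p, was 3496, 3062 and 3224 CPM in brain, against 15865, 20957 and 18591 CPM in gut (log2 fold change −2.46 ± 0.32, adjusted p = 2.28e-04). Its 3 members, which differ from each other outside the seed, were each called higher in gut (−2.00, −3.64 and −1.96).

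Other sums were set by a single member. miR-284-5p carried the sum it shares with miR-1005-3p (log2 fold change 4.84), miR-12-5p that with miR-960-5p (−4.93), miR-10-3p that with miR-1006-3p (−4.80), and miR-2c-5p that with miR-4951-3p (5.74, or 7.63 without gut 2). The sum of miR-1003-3p and miR-1004-3p was higher in brain (2.26) and that of miR-279-3p, miR-286-3p and miR-996-3p higher in gut (−3.42), or −4.04 without gut 1. With factors from the sums themselves these and the miR-276 and miR-9 sums kept their calls, at 2.77 for miR-276, −3.06 for miR-9 and 1.67 for miR-1003-3p with miR-1004-3p.

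In 2 sums, members were called in opposite directions. The seed of the miR-2 family pairs with the K box motif in messenger RNAs, and its sum over 9 names was 9047, 8443 and 8633 CPM in brain, against 14049.9, 20073 and 18129.7 CPM in gut (log2 fold change −0.96 ± 0.31, adjusted p = 0.0241). With factors from the sums themselves it was −1.55 (adjusted p = 0.0015). Of its members 1 was called higher in brain, 4 higher in gut and 4 were not called. miR-13a-3p had 87.2, 94.5 and 95.3 CPM in brain, against 3.04, 7.77 and 4.56 CPM in gut (log2 fold change 4.10 ± 0.38, adjusted p = 4.27e-05). miR-13b-3p, whose printed sequence is nearly the same, had 449, 939.8 and 947 CPM in brain, against 1965, 2307 and 1687 CPM in gut (log2 fold change −1.34 ± 0.34, adjusted p = 0.00904). The list of the family held 12 tested names and left out the 5p arms whose names carry a hairpin number, such as miR-2a-1-5p. Of the 12, 3 were called higher in brain and 5 higher in gut, beside 41.5% and 25.7% of all names tested. Calls toward gut numbered 2 without brain 1 or brain 2 and 3 without gut 2. In the miR-92 and miR-310 group, miR-92b-3p (1.27), miR-311-3p and miR-312-3p were called higher in brain and miR-92a-3p (−2.83) higher in gut, and the sum was not called (0.50, adjusted p = 0.172), nor with factors from the sums themselves, where its sign turned (−0.11, adjusted p = 0.70).

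Neighbouring miRNA genes were compared through the more abundant arm of each hairpin. There were 20 groups of at least 2 tested hairpins on the same strand with gaps of at most 10000 bases, holding 62 hairpins. Calls went only to brain in 10 groups, only to gut in 5 and both ways in 2, and 3 groups held none. In 10 of the 12 groups with at least 2 calls, these had 1 direction. Over the more abundant arms of all 166 hairpins, 69 were called higher in brain and 37 higher in gut. Whether neighbours agreed more often than that split would give was not tested. The closest agreement among groups of 3 calls was in the intron of Gmap on the X chromosome, where miR-283-5p (−4.49), miR-304-5p (−4.98) and miR-12-5p (−4.93) lie within 1591 bases. Their levels differed widely, with 2199, 1878 and 1921 CPM in brain, against 52766, 46565 and 40719.6 CPM in gut, for miR-283-5p and 29.9, 32.9 and 28.7 CPM in brain, against 995, 1126 and 859 CPM in gut, for miR-304-5p.

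The miR-969 and miR-210 pair on the X chromosome was higher in brain on both hairpins (4.14 and 6.73), and so was the pair of miR-4969 and miR-999 (2.99 and 3.88). In the intron of grp on 2L, miR-9c-5p, miR-306-5p (−1.77) and miR-9b-5p were called higher in gut while miR-79-3p was not called (0.43). The miR-2c, miR-13a and miR-13b-1 hairpins lie within 438 bases on 3R, and miR-13a-3p and miR-13b-3p were called in opposite directions. The name miR-13b-3p also belongs to the miR-13b-2 hairpin on X, so its counts cannot be assigned to the 3R group. The seed sum holding miR-13b-1-5p, of the 3R hairpin, was higher in brain (5.67, adjusted p = 3.92e-04). That holding miR-13b-2-5p, of the X hairpin, was higher in gut (−3.09, adjusted p = 2.91e-05). The other group with names called both ways was that of miR-3 to miR-6, where miR-3-3p (1.84) was higher in brain and miR-6-3p higher in gut.

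**Figure D4:**
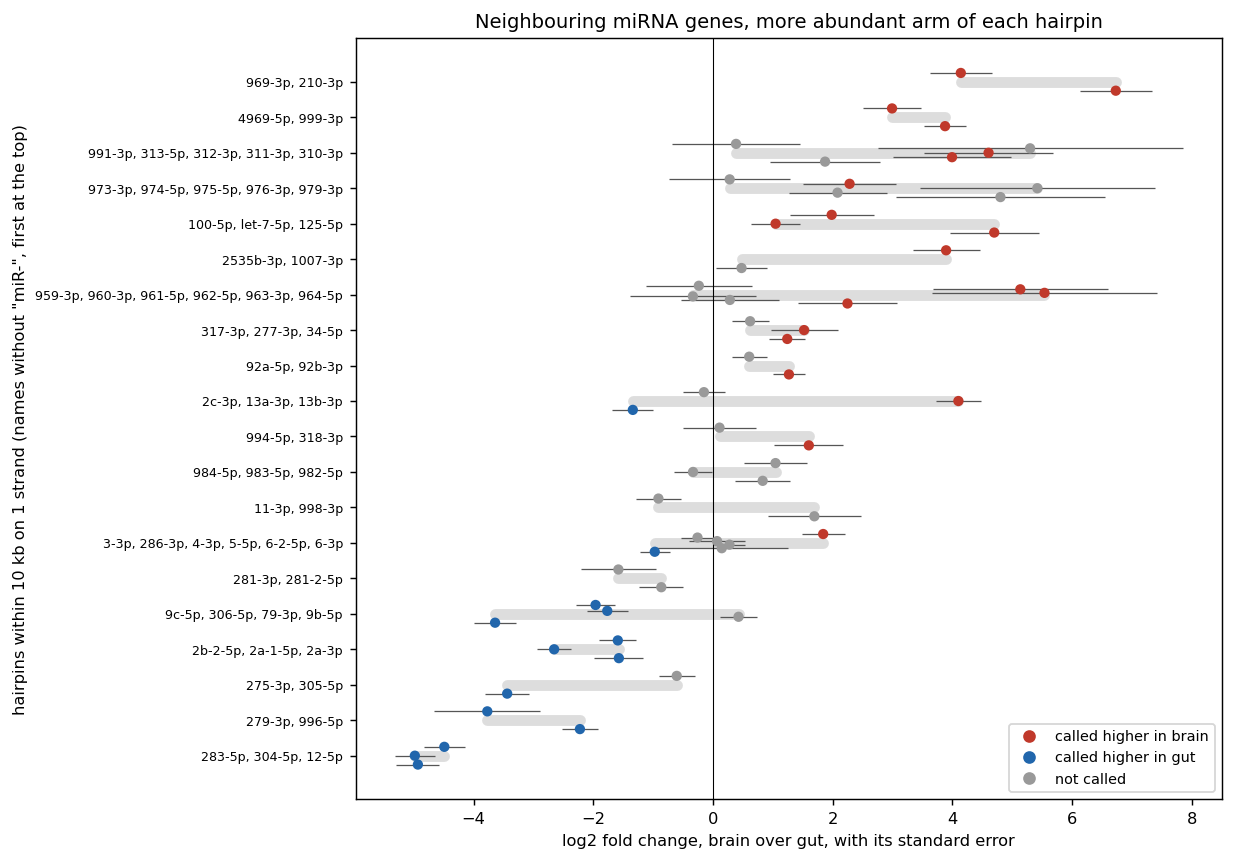
Log2 fold change, brain over gut, with its standard error, of the more abundant arm of each hairpin in 20 groups of neighbouring miRNA genes, ordered by the mean of the group; red was called higher in brain, blue higher in gut and grey not called, and the grey bar spans the group. The 3 Gmap miRNAs at the bottom lie between −4.98 and −4.49, while miR-13a-3p (4.10) and miR-13b-3p (−1.34) stand on both sides of 0. The name miR-13b-3p is shared with a hairpin on X outside the group.

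By place in the annotation, the lead arms of 166 hairpins were compared, of which 41.6% were called higher in brain and 22.3% higher in gut. Hairpins in exons of long non-coding RNAs were called higher in gut in 14 of 41 cases (34.1%), and those in introns in 18 of 66 (27.3%). Those between genes, or inside a gene of the opposite strand only, were so called in 5 of 42 (11.9%), and those in exons of other genes in 0 of 17. Calls toward brain made up 17, 25, 18 and 9 of the same groups. These shares are a description, since neighbouring hairpins share transcripts.

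Arm use was compared for 92 hairpins with at least 10 counts on each arm. The major arm was the same in brain and gut in 90.2% of them. edgeR's test of a difference between the arms called 26 (28.3%), with relatively more of the 3p arm in brain for 11 and more of the 5p arm for 15. A limma test on the log2 ratio of the arms was set beside it, and limma called 18, of which 15 were among the 26. The 8 hairpins described next were called by both.

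miR-2c changed its major arm. Its 3p arm made up 49.7, 49.3 and 46.1% of its reads in brain, against 100, 97.1 and 99.1% in gut (adjusted p = 4.42e-05). In levels, miR-2c-5p had 60.9, 66.3 and 61.4 CPM in brain, against 0, 1.98 and 0.365 CPM in gut, while miR-2c-3p had 60.1, 64.4 and 52.5 CPM in brain, against 102, 65.7 and 39.6 CPM in gut. The 5p arm has another seed than the K box seed of the 3p arm. The 3p share of miR-1016, a mirtron, was 77.8, 76.2 and 81% in brain, against 0, 8.33 and 0% in gut (adjusted p = 0.00348), on 18, 42 and 21 reads in brain, against 3, 12 and 3 in gut. For miR-282 it was 72.4, 41.5 and 50% in brain, against 10.9, 19.1 and 15.7% in gut (adjusted p = 0.00114). These 3 are the called hairpins whose major arm differed between the tissues, and the brain shares of miR-2c and miR-282 lay near 50%.

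For other hairpins the minor arm gained or lost share. The 3p share of miR-92a was 3.23, 2.28 and 3.89% in brain, against 24.1, 31.5 and 22.5% in gut (adjusted p = 1.34e-05). For miR-125 it was 1.50, 1.16 and 1.28% in brain, against 17.6, 25.5 and 16.9% in gut (adjusted p = 0.00262). miR-965 had 3.87, 1.22 and 1.12% in brain, against 26, 37.3 and 18.3% in gut (adjusted p = 1.59e-04). In these 3 the 5p arm dominated both tissues and the 3p share was higher in every gut library than in any brain library. miR-1007, a mirtron, had 99.3, 99.1 and 100% in brain, against 91.7, 48.2 and 71% in gut (adjusted p = 6.75e-05), on 12, 56 and 31 gut reads. miR-285 had 51.7, 27.8 and 50% in brain, against 0, 9.09 and 9.09% in gut (adjusted p = 0.0422). These shares rest on 60, 18 and 20 reads in brain, against 2, 33 and 22 in gut. The call of miR-285 was lost without brain 3 or any 1 gut library (adjusted p = 0.0746, 0.0632, 0.166 and 0.116), and with a replicate block (adjusted p = 0.109).

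**Figure D5:**
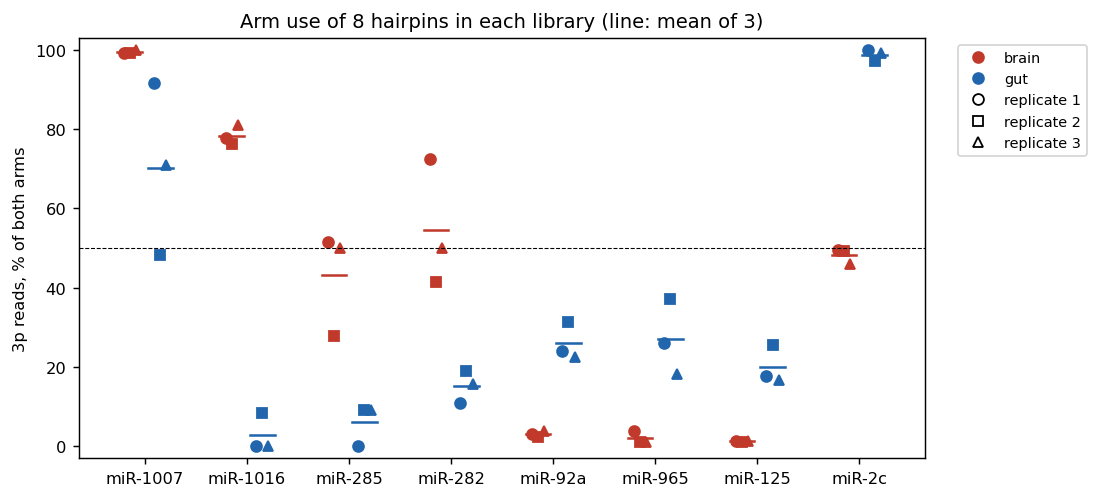
Share of 3p reads among both arms, in percent, of 8 hairpins in each library; red symbols are brain and blue symbols gut, the shape gives the replicate, the short lines are means of 3 libraries and the dashed line marks equal arms. miR-2c and miR-1016 differ most, with means of 48.3 and 78.3% in brain, against 98.7 and 2.78% in gut.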

How the data were processed

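Small RNA was extracted from dissected tissue, size-selected on a gel and sequenced, with 3 libraries each for brain and gut. The values deposited by the authors are raw read counts for each mature miRNA and precursor, made with miRDeep. Neither the build nor the handling of reads that match several miRNAs is stated for them. The table held 434 rows for 426 mature names, and for 7 names on 15 rows the row with the highest total was kept. CPM is a count scaled to a library total of 1e6 over all names.

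A name was tested where its 6 libraries summed to 10 counts or more, in R 4.3.3 with edgeR 4.0.16 (TMM factors, quasi-likelihood F test, Benjamini-Hochberg adjustment, threshold 0.05). Libraries were grouped by their labels, and no replicate block was used. The common coefficient of variation was 42.4%. Arm use was tested with diffSpliceDGE, beside limma 3.58.1. Seed sums used the scaling factors of the fit of single names, a choice made after seeing the data, since factors from the sums themselves called 147 of them. DESeq2 1.42.0 and limma-voom were alternatives. The fits were also run on simulated counts, of lower dispersion and with fewer changed names than were called here. Their error rates under the conditions of these data were therefore not checked. Figures were drawn with Python 3.11.15, pandas 2.3.3 and matplotlib 3.10.9. Sequences, coordinates and host genes came from RefSeq Release 6 by miRNA name, which matched 424 of 426 names.

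The comparison and the lists of miRNAs were chosen with earlier results of these data known. The miRNAs named are those the study names for tissue specificity, the 10 largest differences each way among called names whose groups do not overlap and whose mean is at least 10 CPM in the higher tissue, the 5 most abundant of each tissue, the called members of a list with the lowest adjusted p (at most 4), 5 abundant names not called, the 4 largest arm differences each way, and the 4 largest seed sums each way. Any other name was picked with its values in view. The deposited counts of the head libraries, and the authors' own comparison of these (fold changes and p-values), were not used.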

Additional observations from a re-analysis of the deposited data

How the results depend on the processing

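Across 18 alternatives 135 to 187 names were called, against 178, and no called name changed direction. Leaving out 1 library gave 135 to 181 calls, with 80 to 104 higher in brain and 55 to 77 higher in gut, 21 to 38 hairpins in the arm test and 126 to 161 seed sums. Requiring both diffSpliceDGE and limma left 15 of 26 hairpins, by construction. Same-numbered brain and gut libraries did not deviate together (r = −0.08, −0.08 and 0.06), and with the replicate block 155 names, 21 hairpins and 137 seed sums were called. Thinning each library to 986198 counts, an alternative chosen after seeing the data, gave 151 calls among 199 names tested. Of these, 82 were higher in brain and 69 higher in gut, and the median log2 fold change was 0.34 in place of 0.82. Of 1145 values for 64 named miRNAs, 1055 kept their direction and their side of the threshold, 73 lost the call and 14 gained it. The 3 that changed sign belonged to names not called: miR-184-3p with upper quartile factors (−0.045), miR-8-3p with all 12 libraries scaled together (0.18) and miR-14-3p without gut 1 (−0.13, with a range of −0.13 to 0.85 over the libraries left out). The call of let-7-5p was lost in several settings, among them library totals alone (adjusted p = 0.067). Depth limits rare names: 1 count in gut 1 is worth 1.01 CPM.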
